A study of Mus musculus domesticus with 12 samples.

Results

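The heme synthesis genes described here are 9 nuclear genes, chosen by name in the order of the pathway: Slc25a38, Alas1, Alas2, Alad, Uros, Urod, Cpox, Ppox and Fech. All 9 were present among the 55385 genes of the deposited tables, and all 9 passed the filter on low counts that left 17650 genes for testing. The cells were erythroid progenitors and proerythroblasts from livers of C57BL/6J mouse embryos at E14.5. They were depleted of cells with lineage markers, infected with a retrovirus carrying a short hairpin RNA (shRNA), kept for 2 days in erythroid expansion medium, and sorted as GFP-positive cells that were Ter119-negative with intermediate to positive CD71. The shRNA was directed against firefly luciferase in the control group (shLuc), against Dis3 in the shDis3 group and against Exosc10 in the shExosc10 group, with 4 libraries in each. DIS3 and EXOSC10 are the catalytic subunits of the RNA exosome, a complex that degrades and trims RNA from its 3′ end. All 3 groups carried a virus and were sorted, so uninfected cells were not analysed here, and the labels name no second shRNA against either target. Nothing in the labels tells whether replicates were separate cultures or litters, and p-values then cover only the spread between libraries, which could be technical.

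Heme is made by a chain of enzymes that starts and ends in the mitochondrion. SLC25A38 carries glycine into the mitochondrion, where 5-aminolevulinate synthase joins it to succinyl-CoA in the first step; this enzyme is encoded by Alas1 in most tissues and by the X-linked Alas2 in erythroid cells. The product is converted to porphyrinogens in the cytosol, and the last steps, in and at the mitochondrion, oxidise the ring and insert iron. In maturing erythroid cells the pathway supplies heme for hemoglobin, and translation of Alas2 mRNA depends on iron through an element in its 5′ untranslated region (UTR).

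That iron-responsive element is shown because it separates Alas2 from the other 8 genes in sequence. It lies in exon 1 of Alas2, wholly within the 5′ UTR, at chrX:150547459-150547485 on the plus strand of GRCm38, as annotated by GENCODE M21. The capitals mark the loop of 6 bases, CAGTGC.
Alas2 5′ UTR: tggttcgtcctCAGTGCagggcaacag
The pattern searched was a bulged C, 5 stem bases, the loop CAGTGN, and 5 bases that pair with the stem by Watson-Crick or G-T pairing, on the transcript strand only. A match to it was found in 31 of 21200 genes with an annotated 5′ UTR (0.146%). Alas2 was the only 1 of the 9 heme synthesis genes with a match.

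The targeted transcripts were low in the libraries labelled for them. Values are normalised CPM, counts scaled to the effective size of each library, which are comparable between libraries for the same gene. Dis3 RNA averaged 131 ± 20.3 CPM in the control libraries, 38.3 ± 12.1 after its own knockdown and 143 ± 35.9 after that of Exosc10 (SD, n = 4 each). Exosc10 was at 98.2 ± 12.01, 114 ± 25.2 and 26.4 ± 5.50 CPM in the same order. In each case the targeted group lay below every library of the other groups. With edgeR's quasi-likelihood test and Benjamini-Hochberg adjustment, Exosc10 fell by 1.89 on the log2 scale against shLuc (SE 0.21, adjusted p = 0.005). The difference for Dis3 against shLuc was -1.78 (SE 0.24, adjusted p = 0.0581).

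The libraries did not group by shRNA alone, and this bears on every result below. Total counts lay between 14936200 and 32397204. Clustering on 5995 genes with a mean TPM (the length-corrected transcript abundance) of at least 10, the heme synthesis genes among them, placed shLuc replicates 1 to 3 with shExosc10 replicates 2 to 4; these are called the 6 similar libraries below. A second set held shLuc replicate 4 with shDis3 replicates 1 and 3, another held shDis3 replicate 4 with shExosc10 replicate 1, while shDis3 replicate 2 stood alone. The sets were not sharply separated, since the lowest correlation within a set was 0.96 and the highest between sets 0.964. No shDis3 library was among the 6 similar libraries, so shDis3 and membership in the other sets cannot be fully told apart. Erythroid genes were present throughout: Klf1, an erythroid transcription factor, was at 52.5 to 123 TPM and Gata1 at 30.8 to 79.7 TPM. Granulocyte genes were abundant too, with 11 of 11 listed markers detected and summed levels of 821 to 1797 TPM in the 6 similar libraries and 1148 to 3991 TPM in the other 6. For 11 megakaryocyte markers the sums were 31.1 to 115 and 224 to 315 TPM, which do not overlap. For 7 mast cell and basophil markers the sums were 6.38 to 9.39 and 14.98 to 97.4 TPM, with Fcer1a at 0 in every library. For 10 macrophage and monocyte markers they were 37.8 to 80.7 and 51.7 to 106.7 TPM, with C1qa, C1qb, Mrc1, Vcam1 and Spic under 1 TPM in every library and C1qc and Adgre1 under it on average. The most abundant were Lyz2 (59.1 TPM on average), Csf1r (5.12) and Cd68 (2.70) in this list, and Cpa3 (18.7), Ms4a2 (5.90) and Cma1 (2.12) among the mast cell genes. For 9 hepatocyte markers they were 13.1 to 24.4 and 8.75 to 16.5 TPM, with Apoa1 at 11.8, Trf at 2.10 and Apoa2 at 0.542 TPM on average and albumin at 0 to 1.81 TPM. For 5 sex-linked genes, Xist, Eif2s3y and Ddx3y the most abundant, they were 36.8 to 75.5 and 34.7 to 64.5 TPM. The part of these cells in the levels of the heme synthesis genes was not tested, and in bulk RNA fewer cells of a type and less RNA per cell cannot be told apart.

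On a per-length scale, the late enzymes Cpox and Fech were the most abundant on average and the erythroid synthase Alas2 the least, while Ppox, also a late enzyme, ranked in between. Mean TPM over the 12 libraries fell in the order Cpox (152 ± 57.8), Fech (93.8 ± 28.1), Alad (73.3 ± 18.2), Urod (69.2 ± 16.5), Alas1 (48.8 ± 25.4), Ppox (26.3 ± 10.6), Slc25a38 (20.3 ± 4.88), Uros (16.7 ± 6.93) and Alas2 (10.1 ± 7.16; SD, n = 12). Neighbours in this order overlapped in their ranges, although within libraries Cpox exceeded Fech in 11 of 12 and Uros exceeded Alas2 in 10 of 12. By group the order changed in its lower and middle parts: Alas2 ranked above Uros in shDis3, and Urod ranked above Alad in shExosc10. In shDis3 the ranges of Alas1 and Ppox did not overlap, the only such pair of neighbours in any group. The summed level of the 9 transcripts was 302 to 702 TPM in shLuc, 338 to 667 in shDis3 and 345 to 592 in shExosc10, so the groups overlapped over most of their ranges.

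**Figure D1:**
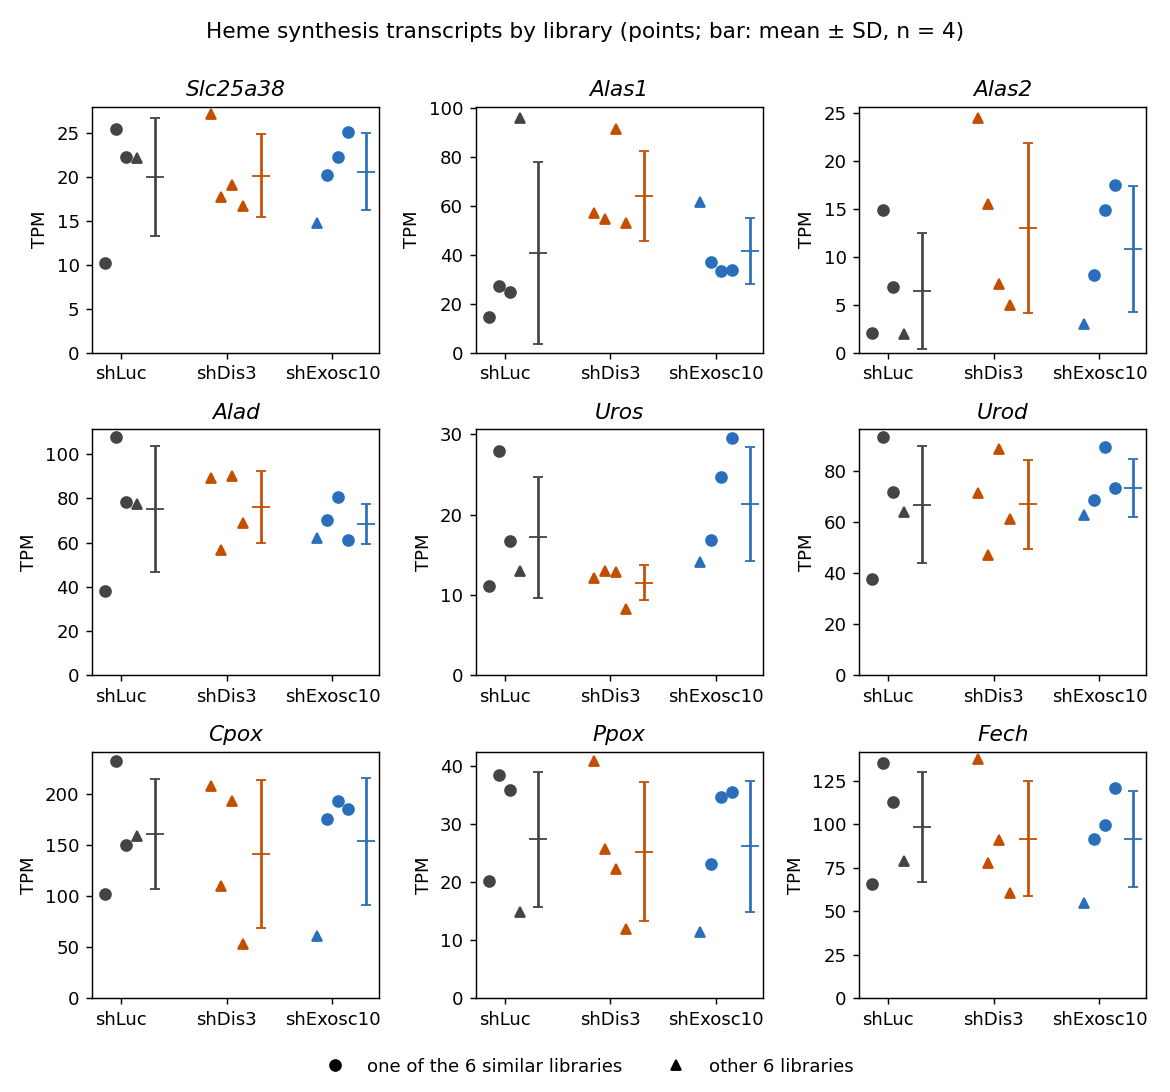
TPM (vertical axis, linear from 0) of each of the 9 genes in every library, by shRNA group; circles are the 6 similar libraries, triangles the other 6, and the bar beside each group is its mean ± SD (n = 4). Alas1 is the gene in which circles and triangles separate, and Uros the gene whose shDis3 libraries lie below all shExosc10 libraries.

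Coordinates below are on GRCm38 with GENCODE M21 annotation. Slc25a38 (ENSMUSG00000032519.11, chr9:120110374-120124504, plus strand), the glycine carrier, varied little. It was at 27.4, 35.2, 45.8 and 23.4 CPM in shLuc replicates 1 to 4, at 36.8, 27.4, 20.6 and 33.3 in shDis3, and at 27.2, 32.1, 32.9 and 36.4 in the shExosc10 libraries. The highest library was 2.23-fold above the lowest, and both lay outside shExosc10. The log2 fold change was -0.16 (SE 0.23) for shDis3 and -0.03 (SE 0.23) for shExosc10 against shLuc.

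Alas1 (ENSMUSG00000032786.16, chr9:106233455-106248654, minus strand), the synthase of most tissues, separated the library sets without overlap but not the shRNA groups. Its level was 35, 35.1, 43.9 and 95.5 CPM in shLuc, 77.0, 63.2, 84.0 and 80.4 in shDis3, and 81.7, 49.8, 41.8 and 42.1 in the shExosc10 libraries. The 6 similar libraries lay between 35 and 49.8 CPM and the other 6 between 63.2 and 95.5; the sets were formed from these libraries' own expression, so this is a description and not a test. All 4 shDis3 libraries were above 3 of 4 shLuc and 3 of 4 shExosc10 libraries, and shLuc replicate 4 was the highest of all 12. The log2 fold change of shDis3 against shLuc was 0.54 (SE 0.31), and that of shExosc10 against shLuc was 0.04 (SE 0.31). Without shLuc replicate 4 the first became 1.002, with an adjusted p of 0.0846 in edgeR's test, and the second 0.51 (adjusted p = 0.999986). Without shExosc10 replicate 1 the second was -0.22. The megakaryocyte marker sums given above separated the same libraries without overlap, and so did the mast cell and basophil sums. The macrophage and monocyte sums overlapped. The granulocyte sums overlapped too, since shDis3 replicate 4 (1148 TPM) and shExosc10 replicate 1 (1367 TPM) lay below shLuc replicate 2 (1504 TPM). Mpo, the granule enzyme myeloperoxidase, ranged from 125.5 to 1855 TPM.

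Alas2 (ENSMUSG00000025270.13, chrX:150547375-150570638, plus strand), the erythroid synthase, had the widest spread of the 9. It was at 7.13, 25.2, 19.6 and 3.05 CPM in shLuc, 40.9, 31.3, 9.51 and 11.7 in shDis3, and 6.55, 19.1, 29 and 35.9 in the shExosc10 libraries. The highest library was 13.4-fold above the lowest, with a coefficient of variation of 63.1% over 12 libraries, and the lowest 2 libraries belonged to shLuc and shExosc10. Its log2 fold change was 0.76 (SE 0.63) for shDis3 and 0.72 (SE 0.63) for shExosc10 against shLuc, and 0.04 (SE 0.63) between the knockdowns. In each comparison the spread within groups was as large as the difference. Of its exonic bases, 12.9% overlap Apex2 on the opposite strand, itself at 3.99 to 9.27 TPM; the strand setting of the counting is not given in the sources used here, so low Alas2 values are uncertain. Both Xist (1.80 to 33.8 TPM) and the Y-linked Ddx3y (4.97 to 13.2 TPM) were detected in all 12 libraries.

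Alad (ENSMUSG00000028393.10, chr4:62509169-62519918, minus strand) encodes aminolevulinate dehydratase, the cytosolic enzyme that joins molecules of aminolevulinate in pairs. It was at 75.4, 118, 124.96 and 64.5 CPM in shLuc, 89.8, 70.5, 75.6 and 100.5 in shDis3, and 81.5, 93.8, 96.6 and 73.8 in the shExosc10 libraries. Both ends of the range were shLuc libraries, so the other 2 groups lay within it.

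Uros (ENSMUSG00000030979.13, chr7:133686243-133710072, minus strand), which encodes uroporphyrinogen III synthase and closes the ring, was the gene of the 9 in which a pair of shRNA groups did not overlap. Its level was 19.96, 28.2, 24.6 and 9.96 CPM in shLuc, 14.1, 14.0, 10.5 and 14.99 in shDis3, and 18.6, 16.5, 26.9 and 31.1 in the shExosc10 libraries. All 4 shDis3 libraries lay below all 4 shExosc10 libraries and below 3 of 4 shLuc libraries. The difference of shDis3 from shExosc10 was -0.79 on the log2 scale (SE 0.29; edgeR's quasi-likelihood test, unadjusted p = 0.0167, adjusted p = 0.769), which did not pass the adjusted threshold of 0.05. This difference became -0.03 (SE 0.29) once the set of similar libraries was added to the model, a term chosen after seeing the data. A complete separation downwards in this comparison was found for 1.80% of all genes tested, and in either direction for 3.71%. Against shLuc the difference of shDis3 was -0.62 (SE 0.29, unadjusted p = 0.051 in edgeR's test).

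Urod (ENSMUSG00000028684.14, chr4:116989965-116994413, minus strand) encodes uroporphyrinogen decarboxylase and was among the steadiest. It was at 89.8, 111, 122 and 62.7 CPM in shLuc, 82.0, 65.3, 78.6 and 95.9 in shDis3, and 90.5, 88.8, 118 and 95.9 in the shExosc10 libraries. The groups overlapped, and the spread over 12 libraries was 1.94-fold. The differences from shLuc were -0.26 (SE 0.21) for shDis3 and 0.03 (SE 0.21) for shExosc10.

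Cpox (ENSMUSG00000022742.6, chr16:58670292-58717636, plus strand), which encodes coproporphyrinogen oxidase of the mitochondrial intermembrane space, was the most abundant of the 9 per length. Its level was 562, 721, 675 and 382 CPM in shLuc, 588, 383, 461 and 221 in shDis3, and 228, 669.8, 657 and 616 in the shExosc10 libraries. Low values fell in the pair shDis3 replicate 4 and shExosc10 replicate 1, which carry different shRNAs and form a set of their own. In TPM these libraries were at 53.0 and 61.1, against at least 102 in the other 10. The log2 fold change was -0.50 (SE 0.34) for shDis3 and -0.11 (SE 0.34) for shExosc10 against shLuc.

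Ppox (ENSMUSG00000062729.11, chr1:171275990-171281186, minus strand) encodes protoporphyrinogen oxidase, and Fech (ENSMUSG00000024588.9, chr18:64452914-64490251, minus strand) encodes ferrochelatase, which inserts the iron. Ppox was at 71.2, 73.9, 93.4 and 21.9 CPM in shLuc, 59.6, 50.6, 33.8 and 29 in shDis3, and 27.6, 53.8, 69.6 and 80.6 in the shExosc10 libraries. Fech was at 343, 383, 453 and 161 CPM in shLuc, 338, 241, 197 and 218 in shDis3, and 153, 312, 316 and 375 in the shExosc10 libraries. For both genes shLuc replicate 4 and shExosc10 replicate 1 were the lowest 2 libraries, a control and a knockdown. In shDis3 against shLuc the differences were -0.59 (SE 0.40) for Ppox and -0.43 (SE 0.32) for Fech. Of the exonic bases of Ppox, 17.5% overlap B4galt3 on the opposite strand, which was at 8.56 to 24.6 TPM.

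**Figure D2:**
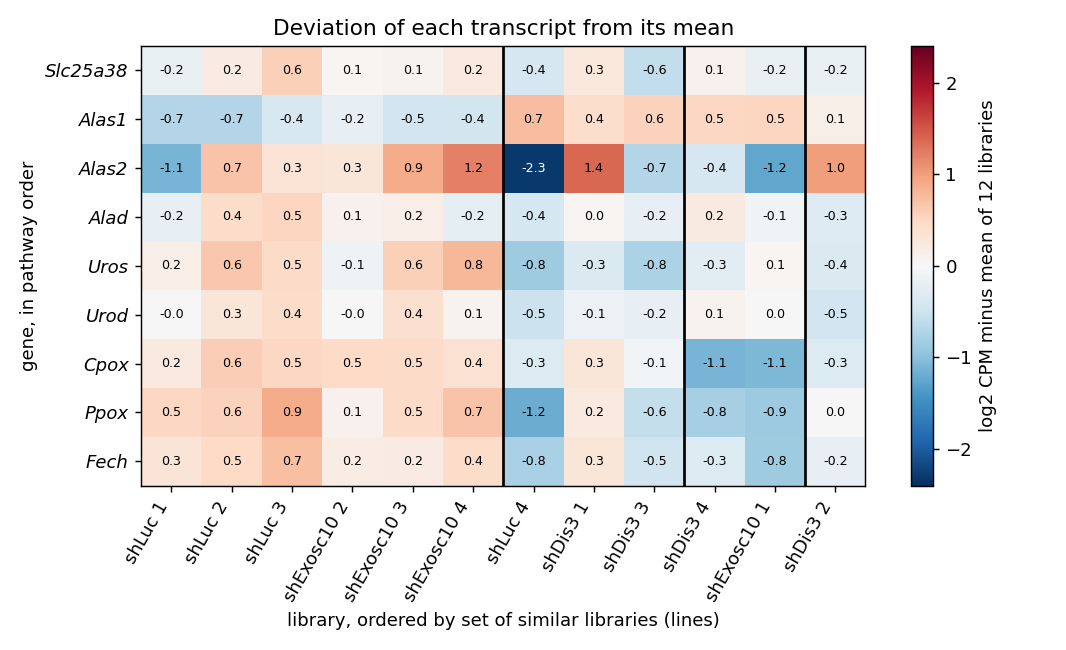
Deviation of each gene (rows, in pathway order) from its own mean over 12 libraries, in log2 CPM with a prior count, coloured from blue (below) to red (above); columns are libraries ordered by set, and black lines separate the 4 sets. Alas1 is below its mean in all 6 libraries of the first set and above it in the other 6, while Cpox, Ppox and Fech are above their means throughout the first set.

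The heatmap of deviations shows a shared pattern beneath these single genes. In each of the 6 similar libraries Cpox, Ppox and Fech were above their own means over 12 libraries while Alas1 was below. Mean levels in the 6 similar and the other 6 libraries were 650 ± 54.9 and 377 ± 140 CPM for Cpox, 73.8 ± 13.1 and 37.1 ± 14.7 for Ppox, 364 ± 52.6 and 218 ± 67.6 for Fech, and 24.5 ± 5.43 and 13.7 ± 3.16 for Uros (SD, n = 6). For Alas1 they were 41.3 ± 5.62 and 80.3 ± 10.5 CPM. These sets were defined from the data and are not groups of the study, and the values are given without a test. Libraries of different shRNA within a set were also set side by side. In shDis3 replicate 4 against shExosc10 replicate 1 the median difference over the 9 genes was 0.08 on the log2 scale, with 6 higher and 3 lower. Against shLuc replicate 4, the other libraries of its set had medians of 0.62 (shDis3 replicate 1, 8 of 9 higher) and 0.27 (shDis3 replicate 3, 7 of 9 higher).

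In the comparison of shDis3 with shLuc, which asks whether loss of DIS3 alters the pathway's transcripts, none of the 9 genes passed the test. In edgeR's quasi-likelihood test the adjusted p was 0.9998 for each, and the smallest unadjusted p was 0.051, for Uros. Alas1 and Alas2 were nominally higher and the other 7 lower, with a median log2 fold change of -0.26 against 0.02 over all genes. No gene of the 17650 passed an adjusted p of 0.05 (0%); at an unadjusted p below 0.05 were 4.07% of all genes and 0 of the 9, and DESeq2 called 33 genes, none of the 9. Groups did not overlap for 1.70% of all genes and for 0 of the 9. Standard errors ran from 0.21 to 0.63 on the log2 scale, and a p above the threshold does not show that the levels were alike.

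Leaving out the libraries doubted from earlier results of these data (shLuc replicate 4, shDis3 replicate 4 and shExosc10 replicate 1) changed 2 of these calls. In that fit with 3 libraries a group, edgeR's test called Alas1 higher by 0.97 on the log2 scale (adjusted p = 0.00765) and Uros lower (-0.92, adjusted p = 0.0435). It called 4.04% of 19126 genes, 772 in all, so 2 of 9 stand beside a larger background than in the full comparison. Against shExosc10 the same genes were called, Alas1 at 0.73 (adjusted p = 0.0444) and Uros at -0.96 (adjusted p = 0.04), where 3.23% of all genes were called. The shDis3 and shLuc libraries left in that fit share no set, so shRNA and set cannot be told apart in it.

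With the set of similar libraries as a further term, added after seeing the data, the direction of most of the 9 genes turned. For shDis3 against shLuc, 8 of 9 were then above 0, as were 53.9% of all genes, and the median was 0.26 against 0.03 over all genes. Alas2 stood at 2.44 (SE 0.64, unadjusted p = 0.00156, adjusted p = 0.459), Ppox at 0.63 (SE 0.30), Fech at 0.57 (SE 0.22) and Alas1 at -0.09 (SE 0.17). None of the 9 passed the adjusted threshold in edgeR's test, and 0.0113% of all genes did, Dis3 among them. Between the knockdowns 7 of 9 were above 0 in this model, as were 54.7% of all genes. Again 0 of the 9 and 0.0113% of all genes were called, the latter being Dis3 and Exosc10. The contrast with shLuc rests on the libraries of the second set, in which shLuc has a single library, and on links through shExosc10. That between the knockdowns rests on shDis3 replicate 4 beside shExosc10 replicate 1, and on links through shLuc. Replicate 2 of shDis3, alone in its set, is absorbed by the set term and adds nothing to either contrast. The direction of the shDis3 differences thus depended on whether the set was in the model.

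**Figure D3:**
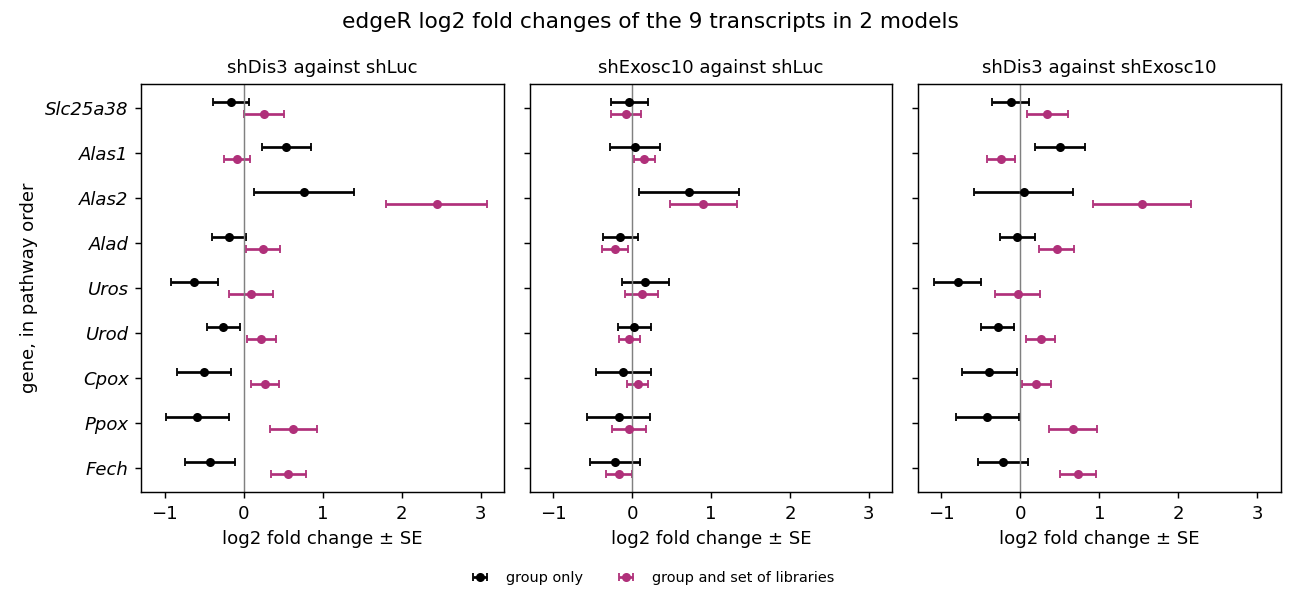
Log2 fold change ± SE (horizontal axis) of each gene (vertical axis, in pathway order) in 3 comparisons, from edgeR with group as the only term (black) and with group and set of libraries (magenta), 12 libraries each. In the magenta model shDis3 replicate 2, alone in its set, adds nothing to the differences. In both comparisons with shDis3 most magenta points lie to the right of the black ones, Alas2 by the most, whereas for shExosc10 against shLuc the 2 models nearly coincide.

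For shExosc10 against shLuc, the corresponding question for EXOSC10, 8 of the 9 genes had log2 fold changes between -0.21 and 0.17, and Alas2 was nominally higher. Log2 fold changes ran from -0.21 (Fech, SE 0.32) to 0.72 (Alas2, SE 0.63), with 4 above and 5 below 0 and a median of -0.03 against 0.02 over all genes. No member of the pathway passed edgeR's test (adjusted p = 0.999995 for each), in which 0.00567% of all genes were called, namely Exosc10. At an unadjusted p below 0.05 were 0 of the 9 and 2.10% of all genes, and DESeq2 called 8 genes and none of the 9. Within the 6 similar libraries, where the groups are 3 against 3, the median was -0.09 and Alas2 stood at 0.69 (SE 0.34, adjusted p = 0.785 in edgeR's test). Groups of 4 did not overlap for 2.48% of all genes and for 0 of the 9. In the smaller fit 0.0482% of 16584 genes were called and none of the 9.

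The knockdowns were also compared with each other. Here 0.0113% of all genes, namely Dis3 and Exosc10, passed the adjusted threshold of edgeR's test, and 0 of the 9 did. Uros, described above, was the only 1 of the 9 at an unadjusted p below 0.05, where 5.98% of all genes lay. Alas1 stood at 0.50 (SE 0.31), Ppox at -0.42 (SE 0.40), Cpox at -0.39 (SE 0.34), Urod at -0.29 (SE 0.21) and Fech at -0.22 (SE 0.32). Over the 9 genes, 2 were above and 7 below 0, where 51.2% of all genes were above, with a median of -0.22 against 0.01 over all genes. This comparison shares its libraries with the others and adds no independent evidence to them.

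The balance between the synthases was read from their TPM in each library. Alas1 exceeded Alas2 in all 12 libraries, from 1.85-fold in shLuc replicate 2 to 48.2-fold in shLuc replicate 4. The log2 ratio of Alas2 to Alas1 was -2.83, -0.88, -1.85 and -5.59 in shLuc, -1.22, -1.82, -3.67 and -3.42 in shDis3, and -4.38, -2.20, -1.17 and -0.95 in shExosc10. Every group spanned more than the differences between groups. The means were -2.79 ± 2.03, -2.53 ± 1.20 and -2.17 ± 1.57 (SD, n = 4). The differences were 0.26 for shDis3 against shLuc (two-sided exact permutation test, p = 0.857), 0.62 for shExosc10 against shLuc (p = 0.657, exact) and -0.36 between the knockdowns (p = 0.8, exact). Adjusted over the 3 comparisons each exact p was 0.857, where 0.0286 is the smallest unadjusted p that 4 against 4 allows.

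**Figure D4:**
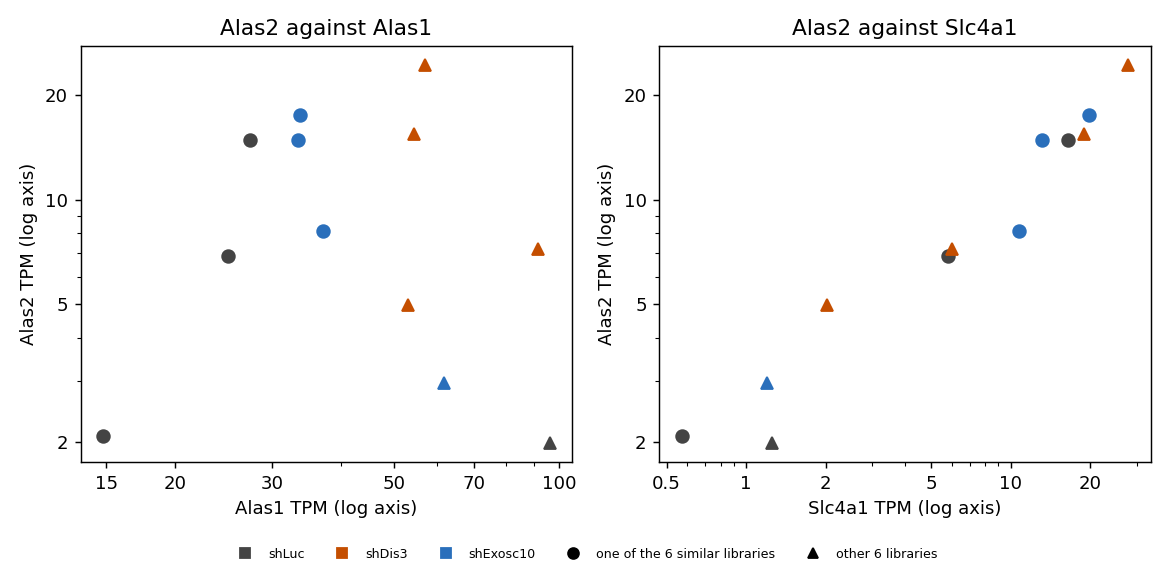
Alas2 TPM against Alas1 TPM (left) and against Slc4a1 TPM (right), both axes logarithmic, with colour for shRNA group and circles for the 6 similar libraries. Alas2 rises with Slc4a1 across libraries of all groups, whereas against Alas1 the circles and triangles form separate clouds.

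Genes whose pattern was most like that of each synthase differed in kind. For Alas2, the highest correlations of log2 CPM over 12 libraries among 5994 genes were with Slc4a1, the anion exchanger of the red cell membrane (r = 0.96), and with the adult globin genes Hbb-bt (0.944), Hba-a2 (0.935), Hbb-bs (0.93) and Hba-a1 (0.873). Within the 6 similar libraries these correlations were 0.966 to 0.998. For Alas1 they were with Nrros (0.988), Lrrfip1 (0.983), Itgb3 (0.982), which encodes an integrin chain of platelets and megakaryocytes, Fes (0.979) and Lcp1 (0.978), the last encoding a leukocyte actin-bundling protein. Within the 6 similar libraries they were 0.751 to 0.907. Alas1 against Mpo gave 0.89, and Alas1 against Alas2 gave -0.444 over 12 libraries but 0.364 within the 6. Among the other heme synthesis genes, Alas2 was most like Ppox (0.718) and Fech (0.692), but within the 6 similar libraries these were 0.15 and 0.106. The points are libraries that fall into sets and share their depth across genes, and RSEM divides reads between near-identical globin genes, so these values are descriptions.

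Genes that work beside the pathway showed no called change either: in none of the lists that follow did a gene pass an adjusted p of 0.05 in edgeR's test in any of the 3 comparisons, with group as the only term. Counts are given as higher and lower in shDis3 against shLuc, then in shExosc10 against shLuc, where 52.6% and 52.2% of all genes were above 0. Of 15 mitochondrial partners of heme synthesis, 7 were higher and 8 lower, then 9 and 6, with medians of -0.08 and 0.01. This list holds Tmem14c, a porphyrinogen transporter (156 TPM on average; log2 fold changes -0.26 and -0.07), and the proteases Clpp (52.4 TPM; 0.18 and 0.01) and Lonp1 (55.8 TPM; -0.27 and -0.07), which act on ALAS proteins. Of 13 genes of iron-sulfur cluster assembly, which supplies the cofactor of ferrochelatase, 8 were higher and 5 lower, then 9 and 4, with medians of 0.05 and 0.20. The most abundant were the chaperone Hspa9 (252 TPM; -0.06 and -0.02), Bola3 (141 TPM; 0.00 and 0.27) and Nfu1 (71.8 TPM; 0.05 and -0.05).

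Of 13 tested genes of heme export, breakdown and sensing, 4 were higher and 9 lower in shDis3, and 6 and 7 in shExosc10, with medians of -0.04 and -0.01. Fth1 and Ftl1, the ferritin chains that store iron, were at 1092 and 762 TPM; the log2 fold changes of Fth1 were -0.35 and -0.33 and those of Ftl1 0.02 and -0.17. Blvrb, a biliverdin reductase, was at 200.5 TPM (-0.42 and 0.12). Of 9 genes of iron entry, 1 was higher and 8 lower in shDis3, and 3 and 6 in shExosc10, with medians of -0.24 and -0.14. Tfrc, the transferrin receptor CD71 on which the cells were sorted, stood at -0.97 (SE 0.34) in shDis3 and 0.04 (SE 0.33) in shExosc10, from 168 ± 59.3 TPM in shLuc; because the gate used this protein, its RNA is not an independent readout. Pcbp1 and Pcbp2, iron chaperones, were at 134 and 340.0 TPM, with log2 fold changes of -0.22 and -0.54, and of -0.23 and -0.42.

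Of 11 tested regulators of the ALAS genes and erythroid factors, 5 were higher and 6 lower in shDis3, and 1 and 10 in shExosc10, with medians of -0.02 and -0.18. The cofactors Lmo2, Ldb1 and Zfpm1 averaged 111, 102 and 87.8 TPM; Lmo2 stood at 0.31 and 0.32, Ldb1 at -0.29 and -0.26, and Zfpm1 at -0.08 and -0.35. Of 14 erythroid markers, 5 were higher and 9 lower in shDis3, and 10 and 4 in shExosc10, with medians of -0.15 and 0.12. The globin genes Hba-a1, Hba-a2 and Hbb-bs stood at 0.22, 0.66 and 0.25 in shDis3 and at 0.58, 0.51 and 0.77 in the shExosc10 libraries. The markers of other lineages had larger medians: 11 of 11 megakaryocyte genes were higher in shDis3 (median 0.87; Pf4 1.44, Itgb3 1.06, Itga2b 0.64) and 5 of 11 in shExosc10 (-0.02). Of 11 granulocyte genes, 8 were higher in shDis3 (median 0.74; Mpo 0.82, S100a8 0.17, S100a9 0.15) and 2 in shExosc10 (-0.06). Of 9 stem and early progenitor genes, 7 were higher in shDis3 (median 0.52; Kit -0.63, Gata2 -0.52, Cd34 0.93) and 2 in shExosc10 (-0.41).

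With the set of similar libraries as a further term, added after seeing the data, several of these lists turned. All 14 erythroid markers were then higher in shDis3 than in shLuc (median 0.50, smallest adjusted p = 0.573 in edgeR's test), and 11 of 14 in shExosc10 (median 0.19). Over all genes in this model, 53.9% were above 0 in shDis3 against shLuc. The medians over all genes were 0.03 in shDis3 and 0.01 in shExosc10. Of the 11 megakaryocyte genes, 7 were higher in shDis3 (median 0.13) and 9 in shExosc10 (0.36), so the larger median moved to the other knockdown. Of the 9 stem and early progenitor genes, 2 were higher in shDis3 (median -0.46) and 3 in shExosc10 (-0.12). Of the 11 granulocyte genes, 11 were higher in shDis3 (median 0.24) and 7 in shExosc10 (0.11). Of the lists that work beside the pathway, the mitochondrial partners had 12 of 15 higher in shDis3 (median 0.14), iron-sulfur assembly 11 of 13 (0.17), heme export, breakdown and sensing 9 of 13 (0.08), iron entry 5 of 9 (0.08) and the regulators 4 of 11 (-0.03). In edgeR's test with this term, 1 gene of all the lists passed the adjusted threshold: Ms4a3, a granulocyte gene at 6.97 to 59.8 TPM, was higher in shExosc10 than in shLuc (adjusted p = 0.0332), and also within the 6 similar libraries alone (adjusted p = 0.0488). With group as the only term its log2 fold change there was 1.01 (SE 0.41, adjusted p = 0.999995).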

How the data were processed

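RNA was sequenced from 12 libraries in 3 groups of 4, named from the sample titles. Per the labels' protocols, a stranded total-RNA kit for low input was used. STAR 2.5.3a, RSEM 1.3.0 and GRCm38 (mm10) are listed, without roles, in the submitters' processing notes; no source used here gives the annotation release or strand setting. The deposited tables hold, per the file headers, RSEM expected counts, estimates that divide ambiguous reads between genes, and TPM, a deposited value scaled for transcript length and to the same total in each library. Of all gene counts 4.55% were not whole (tolerance 0.005), and 0 of the 108 counts of the 9 genes. Identifiers were named with GENCODE M21 (54487 of 55385 matched with version, 55144 without).

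Counts were rounded and tested with edgeR 4.0.16 in R 4.3.3: TMM factors, the default low-count filter by group, and a quasi-likelihood F-test with group as the only term over 12 libraries. The biological coefficient of variation was 60.0%, and prior degrees of freedom were 5.45. P-values were adjusted over all 17650 genes by Benjamini-Hochberg, with a threshold of 0.05. Normalised CPM served comparisons of a gene between libraries and TPM comparisons between genes. The test was checked on simulated data with a smaller spread between libraries than here and no sets of similar libraries. That check does not show its power or error rate in these data. No 2 libraries were alike within sampling noise (lowest chi-square per degree of freedom 10.7). Alternatives were RLE factors, DESeq2 1.42.0, no filter, limma 3.58.1 on log2(TPM + 1) and log2(TPM + 0.1), a replicate block, leaving out each library, leaving out 3 libraries, and, added after seeing the data, a term for the set of similar libraries and the 6 similar libraries alone. Ratios were tested with scipy 1.17.1. All 9 genes are named, with the 3 most abundant genes of each list, any gene of a list that was called, and the 5 genes most like Alas1 and Alas2; other genes were named after their values were seen. The 9 genes and the lists were chosen with earlier results of these data known. No sequence of Fech is printed, and promoters and proteins were not used here.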

Additional observations from a re-analysis of the deposited data

Results flagged for a closer look

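Cpox in shExosc10 replicate 1 lay far from the other 3 libraries of its group. It was at 7.83 on the log2 CPM scale, against 9.27 to 9.39 in the others, and the gap took up 0.922 of the group's range, above the 95% critical value of Dixon's ratio for 4 samples. A ratio above that critical value is reached by chance in about 1 group in 20, and 30 groups were examined. The same library shared its low Cpox with shDis3 replicate 4, the library nearest to it in overall expression.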

How the results depend on the processing

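The number of genes called was the result that moved most, and the cause was not tested except where a setting itself changes the genes or libraries. For shDis3 against shLuc, shExosc10 against shLuc and the knockdowns against each other, 0, 1 and 2 genes were called. DESeq2 called 33, 8 and 79 and no filter gave 123, 10 and 179; RLE factors gave 1 in the first; limma on either TPM scale gave 0 in all 3. Leaving out 3 libraries gave 772, 3 and 617, the set term 2 and 5 in the first 2, and the 6 similar libraries alone 8 for shExosc10. Leaving out each library gave 0 to 146, 0 to 2 and 1 to 2; the 146 came without shLuc replicate 4.

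Replicate numbers did not pair the samples consistently. Same-numbered libraries had deviations correlated from -0.47 to 0.773, with 7 of 12 pairs above 0.1. For libraries of different number the range was -0.739 to 0.657. With the number as a block, 1 gene was called between the knockdowns, and Alas2 there turned to -0.032.

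Of 549 values of the 9 genes under alternatives, 488 kept their direction and side of the threshold, 57 reversed sign and 4 became called (Alas1 and Uros, given above). On the log2(TPM + 1) and log2(TPM + 0.1) scales the shDis3 differences from shLuc became 0.0833 and 0.0855 for Alad, 0.0373 and 0.0385 for Urod, and 0.0588 and 0.0653 for Slc25a38. Slc25a38 became 0.0902 and 0.0979 in shExosc10, and Alad 0.13 and 0.14 between the knockdowns. Without the 3 libraries Urod was -0.08 and Cpox 0.0008 for shExosc10, Alas2 -0.0594 between the knockdowns, and the log2 Alas2 to Alas1 ratio -0.38 for shDis3.

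The set term reversed, for shDis3 against shLuc, Alas1 (-0.0865), Alad (0.24), Uros (0.0868), Urod (0.22), Cpox (0.27), Ppox (0.63), Fech (0.57) and Slc25a38 (0.26). For shExosc10 it reversed Urod (-0.0332) and Cpox (0.0691). Between the knockdowns it reversed Alas1 (-0.24), Alad (0.46), Urod (0.26), Cpox (0.20), Ppox (0.66), Fech (0.73) and Slc25a38 (0.34). In the 6 similar libraries alone Urod was -0.0907.
Leaving out each library gave ratio differences of -0.67 to 0.90, -0.32 to 1.35 and -1.09 to 0.0525, and 25 of 324 single-gene values changed sign. Those ranged, for shDis3 against shLuc, from -0.29 to 0.0481 (Slc25a38); for shExosc10, from -0.30 to 0.023 (Alad), -0.22 to 0.51 (Alas1), -0.27 to 0.16 (Cpox), -0.45 to 0.0067 (Fech), -0.47 to 0.0769 (Ppox), -0.17 to 0.18 (Slc25a38), -0.13 to 0.18 (Urod) and -0.0646 to 0.37 (Uros); and between the knockdowns, from -0.16 to 0.0297 (Alad), -0.39 to 0.34 (Alas2) and -0.25 to 0.0206 (Slc25a38).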
